A study of Mus musculus with 8 samples.

Results

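Expression of 10 lipid genes of the sebaceous gland was followed in mouse paw tissue: Awat1, Awat2, Dgat2l6, Mogat1, Soat1, Scd3, Elovl3, Fa2h, Far2 and Mc5r. They were taken by symbol from the count tables, and 10 of 10 were found among the 22609 gene symbols. Polyadenylated RNA was sequenced in 4 libraries from paws of male mice and 4 from paws of female mice of the inbred strain C57BL/6J. Every library carried the label of prolactin treatment, at 0.1 µg injected into the paw on each of 12 days, so neither sex had an untreated background here. The sources used here do not give the age of the mice or the part of the paw that was taken. Labels do not say that each library came from its own animal, and p-values then measure the spread between these libraries.

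Sebaceous glands sit beside hair follicles and fill their cells with neutral lipid until the cells burst and release it as sebum, which coats hair and skin. Mouse sebum is rich in wax esters, which join a fatty alcohol to a fatty acid, together with triglycerides and esters of cholesterol. Far2 reduces fatty acyl-CoA to fatty alcohol, Scd3 is a delta-9 desaturase, Elovl3 elongates fatty acyl chains and Fa2h places a hydroxyl group beside the carboxyl group of fatty acids. Awat1 and Awat2 are wax synthases, Dgat2l6 is a related acyltransferase, Mogat1 acylates monoacylglycerol and Soat1 esterifies cholesterol. Mc5r is a melanocortin receptor that promotes sebum production in mice. Glands of this kind are a feature of haired skin, and the sole of the mouse paw is largely bare.

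In RefSeq (GRCm38.p6) the 3 acyltransferase genes Awat2, Dgat2l6 and Awat1 followed each other on the X chromosome in that order. Otud6a and Igbp1 were listed between Awat2 and Dgat2l6, and no protein-coding gene lay between Dgat2l6 and Awat1. Among the 4 tested acyltransferase members these 3 had the closest patterns over the libraries, and their promoters are shown for that reason. Each runs 5′ to 3′ along the gene's strand, from 250 bases before to 50 after its annotated start, at chrX:100571997-100572296 on the plus strand for Awat1, chrX:100412538-100412837 on the minus strand for Awat2 and chrX:100524588-100524887 on the plus strand for Dgat2l6. RefSeq lists a further start for Awat2, which is not shown. Capitals mark the letters CCAAT or their reverse complement.
Awat1: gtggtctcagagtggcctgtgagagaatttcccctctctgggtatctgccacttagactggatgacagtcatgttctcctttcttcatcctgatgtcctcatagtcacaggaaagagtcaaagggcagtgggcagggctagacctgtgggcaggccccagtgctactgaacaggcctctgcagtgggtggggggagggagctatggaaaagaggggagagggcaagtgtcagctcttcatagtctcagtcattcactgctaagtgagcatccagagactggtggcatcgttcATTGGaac
Awat2: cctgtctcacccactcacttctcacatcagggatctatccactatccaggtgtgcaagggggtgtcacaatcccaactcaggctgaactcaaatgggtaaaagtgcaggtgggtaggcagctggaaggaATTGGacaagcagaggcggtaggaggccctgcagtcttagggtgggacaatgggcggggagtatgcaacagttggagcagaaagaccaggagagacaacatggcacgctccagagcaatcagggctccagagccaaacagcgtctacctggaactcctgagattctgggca
Dgat2l6: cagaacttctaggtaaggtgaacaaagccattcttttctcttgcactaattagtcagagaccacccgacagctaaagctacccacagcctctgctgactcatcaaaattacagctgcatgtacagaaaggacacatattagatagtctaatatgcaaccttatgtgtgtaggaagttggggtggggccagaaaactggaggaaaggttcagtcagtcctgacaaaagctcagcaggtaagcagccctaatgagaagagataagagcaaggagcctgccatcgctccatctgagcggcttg

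Exact matches to 4 short motifs, with no overlap among the matches in these windows, were searched on both strands. The TATA box was spelled TATAAA, the CCAAT box as its name, the GC box GGGCGG and the E-box CACGTG. There was 1 match to the CCAAT box in the Awat1 window, on the reverse strand at base 293, and 1 in the Awat2 window, on the reverse strand at base 130. The GC box was found once, at base 181 of the Awat2 window. None of the 4 motifs was found in the Dgat2l6 window, and neither the TATA box nor the E-box was found in any of the 3. Over all 32851 promoter windows of that length, 37.4% held the CCAAT box, 35.7% the GC box, 13.6% the TATA box and 7.15% the E-box. Promoter windows were kept for 7 members (not Elovl3, Fa2h and Mc5r).

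Counts in genes summed to 16753528 to 24993744 per library, of which the 10 genes together made up 0.0548 to 0.0847%. Xist and Y-linked transcripts parted the sexes as labelled in 8 of 8 libraries. Muscle content stood apart in some libraries: the summed level of 16 skeletal muscle genes was 39.6 CPM in female replicate 3 and 32475 CPM in male replicate 2. CPM are read counts scaled to library size, with the trimmed mean of M-values (TMM) as the scaling between libraries. The paw libraries also held the other cells of skin. Of 16 hair follicle genes 16 lay above 0 (higher in females) without passing the test, with Tchh (log2 fold change 0.67, SE 0.58) and Krt71 (0.74, SE 0.54) highest in level. Of the 16 muscle genes 15 lay below 0, among them Atp2a1 (-0.23, SE 1.61) and Acta1 (-0.61, SE 1.497). Over all 14790 tested genes 7795 lay above 0 and 6995 below. The hair follicle genes summed to 178 to 743 CPM in males and 423 to 1361 CPM in females. Female replicate 3 held the 1361 CPM, and the other females, at 423 to 514 CPM, lay inside the male range. The 13 keratinocyte genes (6 above 0 and 7 below) summed to 48920 to 62964 CPM in males and 36492 to 54504 CPM in females. In such bulk tissue, fewer cells of a type and less RNA per cell cannot be told apart.

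A further 10 genes of sebocyte differentiation and lipid droplets were read beside the members, and all passed the filter on low counts. Passing that filter does not test the label of the gene set. Krt79, a keratin of the sebaceous duct and upper follicle, stood at 412 ± 56.4 CPM in females against 434 ± 46.3 CPM in males (SD, n = 4 each). Mgst1, a glutathione transferase that is high in sebocytes, stood at 207 ± 14.5 and 186 ± 16.6 CPM. The lipid droplet gene Cidea stood at 34 ± 2.26 and 34.3 ± 6.4 CPM, and Pparg, the nuclear receptor that drives lipid-storing cells, at 9.79 ± 1.07 and 11.3 ± 2.44 CPM. Other skin and fat cells also express some of these genes. Libraries of the sexes overlapped for these 4 genes, and which cells they came from was not tested.

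Levels of different genes were compared per kb of the longest coding transcript. Fa2h stood highest, at 71.5 CPM per kb over the 8 libraries (43.2 to 103), followed by Awat1 at 52.2 (34 to 63.7), Far2 at 46.9 (37.7 to 56.9) and Elovl3 at 41.8 (25.6 to 60.7). The ranges of these 4 overlapped, and each of their neighbouring pairs kept its order in only 5 or 6 of the 8 libraries. Scd3 followed at 27.4 CPM per kb and lay below Elovl3 in 7 of 8 libraries. Awat2 at 10.3 and Dgat2l6 at 9.91 could not be ordered, since each was the higher one in 4 libraries. Soat1 stood at 6.78 CPM per kb, below Dgat2l6 in 6 of 8 libraries. Mc5r at 1.45 and Mogat1 at 0.251 were lowest in all 8. The first place of Fa2h came from the males, at a mean of 91.6 CPM per kb against 49 for Awat1. In females the mean of Awat1 was the higher one, at 55.4 against 51.4 for Fa2h. With merged exons as the length, Far2 and Elovl3 changed places, as did Awat2 and Dgat2l6.

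**Figure D1:**
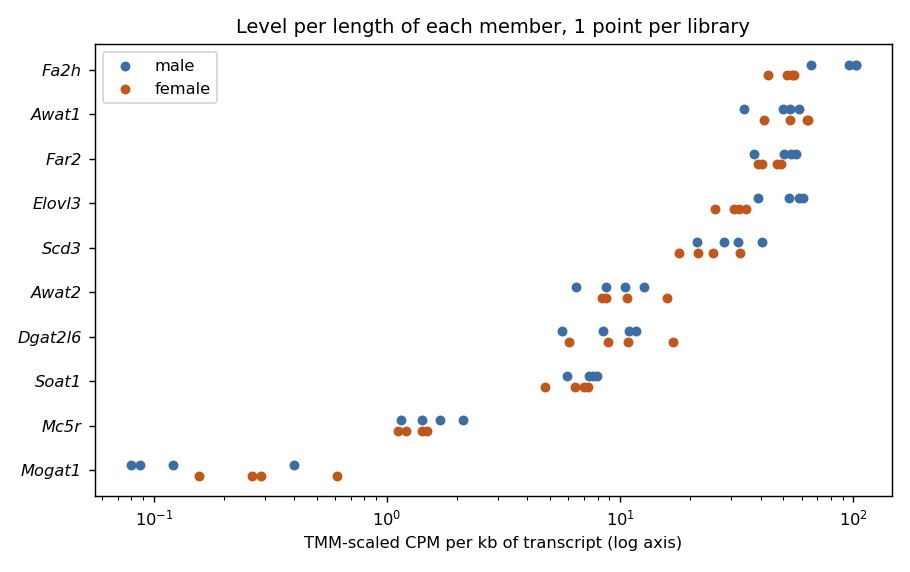
Level of each of the 10 genes per kb of its longest coding transcript, on a log axis, with 1 point per library (blue male, orange female). Fa2h, Awat1, Far2 and Elovl3 overlap at the top, and Mogat1 lies lowest, at 0.251 CPM per kb on average.

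Reads placed at more than 1 position were not counted in genes, so sequence shared with other genes can lower a count. Of the 50-base windows of the longest coding transcript, as long as the reads, 6.69% in Scd3 also occurred in transcripts of other genes, with Scd1 and Scd2 foremost. In Mogat1 the share was 12%, with BC035947. It was 1.14% in Far2 and 0.853% in Soat1, and 0 in Awat1, Awat2, Dgat2l6, Fa2h, Elovl3 and Mc5r. The counts of Scd3 and Mogat1 are thus uncertain to that extent. Far2 also shared windows with Far2os2, an overlapping antisense gene, and the sources used here do not give the strand setting of the counting.

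Between the sexes, the log2 fold changes of Fa2h (-0.83), Elovl3 (-0.77) and Scd3 (-0.33) were below 0, and those of the 3 X-linked acyltransferases slightly above it. No member passed the test in edgeR. Of the 10 genes 9 passed the filter on low counts, 6 of them below 0 (lower in females) and 3 above. The median log2 fold change of these 9 was -0.18, against 0.01 over all 14790 genes tested. With an adjusted p under 0.05, edgeR called 0 of the 9 members and 14 of all genes (0.0947%), while DESeq2 called 2 of the 9 members, Fa2h and Elovl3, and 112 of the 14781 genes it gave an adjusted p (0.758%). An unadjusted p under 0.05 was reached in edgeR by those same 2 members, both lower in females, against 6.53% of all tested genes in either direction and 2.45% lower in females. Female and male libraries did not overlap for Fa2h and Elovl3, with females lower. Of all tested genes 1.81% had no overlap with females lower, and 4.74% in either direction.

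**Figure D2:**
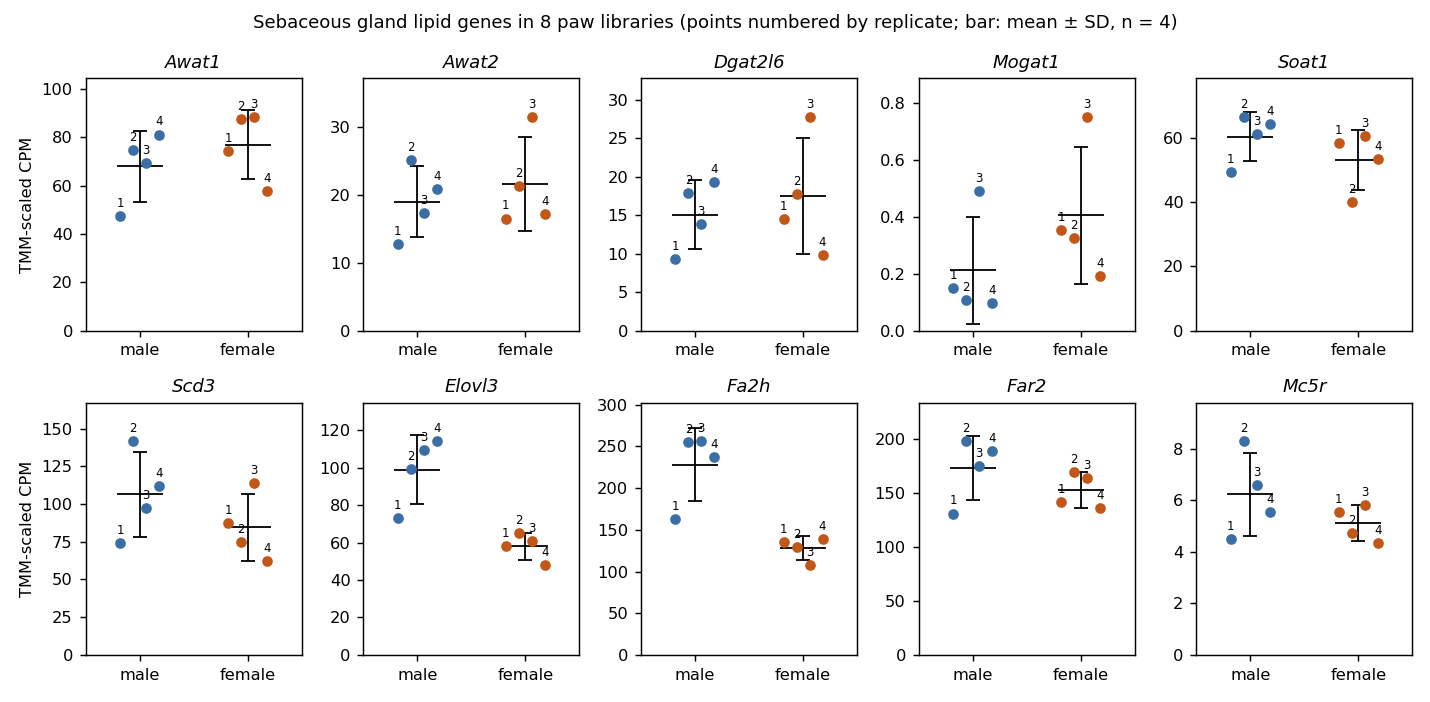
TMM-scaled CPM of the 10 genes in each library, with points numbered by replicate and the mean ± SD of each sex (n = 4). For Elovl3 and Fa2h all 4 females lie below all 4 males, and for the other 8 genes the sexes overlap.

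Fa2h, which makes the hydroxylated fatty acids of skin and myelin lipids, had the largest fold change of the 9 members tested. It stood at 163, 256, 256 and 238 CPM in male replicates 1 to 4 and at 135, 130, 108 and 139 CPM in female replicates 1 to 4. The lowest male, replicate 1, was still above the highest female. The mean was 128 ± 14.1 CPM in females against 228 ± 44.1 CPM in males (SD, n = 4 each; log2 fold change -0.83, SE 0.16, edgeR adjusted p = 0.179, DESeq2 adjusted p = 0.000181). Without male replicate 1, the lowest male, edgeR called Fa2h (log2 fold change -0.96, adjusted p = 0.044). With any other single library left out it was not called (edgeR adjusted p = 0.246 to 0.630).

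Elovl3, an elongase of very long acyl chains, was also lower in females. Its lowest female was replicate 4, the highest female for Fa2h. Its male libraries stood at 73.2, 99.2, 110 and 114 CPM and its female libraries at 58.1, 64.9, 61 and 48.1 CPM, in replicate order. Here too the lowest male was replicate 1, and no female reached it. The log2 fold change was -0.77 (SE 0.15, edgeR adjusted p = 0.205, DESeq2 adjusted p = 0.00121). Without male replicate 1 it was -0.89 (edgeR adjusted p = 0.074). With any other single library left out the edgeR adjusted p was 0.303 to 0.653.

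Several tissue measures were set beside these 2 genes. Fa2h is also expressed by Schwann cells, and the 8 Schwann cell genes summed to 403 to 806 CPM in females against 360 to 805 CPM in males, with overlap, and 6 of the 8 lay above 0, such as Pmp22 (0.06, SE 0.31) and Mbp (0.11, SE 0.36). Of the 13 keratinocyte genes 3 reached an unadjusted p under 0.05 in edgeR, all lower in females: Lor, Krt10 and Ivl, none of them past the adjusted threshold there. Lor, a cornified envelope gene, stood at 2130 ± 255 CPM in females against 2869 ± 144 CPM in males with no overlap (log2 fold change -0.43, SE 0.12, edgeR adjusted p = 0.511, DESeq2 adjusted p = 0.00496). For the suprabasal keratin genes Krt10 and Krt1 the log2 fold changes were -0.42 and -0.35 (SE 0.18 and 0.24, edgeR adjusted p = 0.754 and 0.915), and the basal keratin genes Krt5 and Krt14 stood at -0.10 (SE 0.16) and -0.11 (SE 0.18). Of the other 7 genes of the list Krt15 stood at -0.11, and 6 lay above 0: Col17a1 (0.31), Trp63 (0.19), Cdh1 (0.14), Itga6 (0.13), Dsc3 (0.06) and Dsg1a (0.03). When libraries were scaled to the keratinocyte genes, the median of all genes moved up by 0.12, and the values were -0.72 for Fa2h and -0.68 for Elovl3 (edgeR adjusted p = 0.762 and 0.422). With that scaling 12 genes were called higher and 9 lower in females, against 6 and 8 otherwise. With the hair follicle genes as a covariate the values were -0.81 for Fa2h and -0.82 for Elovl3, and with the muscle genes -0.78 and -0.80. The part of the cells with Lor, Krt10 and Ivl in the values of Fa2h and Elovl3 was not tested.

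Scd3, the desaturase, overlapped between the sexes. It stood at 74.3, 142, 97.6 and 112 CPM in males and at 87.4, 74.9, 114 and 62.2 CPM in females, in replicate order. Male replicate 2 was highest and female replicate 4 lowest. The log2 fold change was -0.33 (SE 0.23, edgeR adjusted p = 0.918), and ranged from -0.51 without female replicate 3 to -0.17 without male replicate 2. Its paralog Scd1, which is far more widely expressed, lay the other way, at 926 to 1259 CPM in males and 1273 to 1465 CPM in females. The libraries of Scd1 did not overlap, but it did not pass either (log2 fold change 0.24, SE 0.12, edgeR adjusted p = 0.816). The ratio of Scd3 to Scd1 counts was 0.0803 to 0.112 in males and 0.0424 to 0.0818 in females, and the sexes overlapped in that ratio by the highest female and the lowest male.

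Far2, the source of fatty alcohol for wax, varied least among the members. Its males stood at 131, 198, 175 and 189 CPM and its females at 142, 170, 164 and 136 CPM. The lowest of all libraries was male replicate 1, and the log2 fold change was -0.18 (SE 0.14, edgeR adjusted p = 0.931), or -0.30 without that library. Far1, the more widely expressed reductase, stood at 75.2 ± 7.9 CPM in females against 84.1 ± 2.56 CPM in males (log2 fold change -0.16, SE 0.08, edgeR adjusted p = 0.815).

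Awat1, the more abundant wax synthase, stood at 47.3, 74.7, 69.3 and 81.2 CPM in males and at 74.2, 87.7, 88.5 and 57.8 CPM in females. Male replicate 1 was lowest and female replicate 3 highest, with overlap between the sexes. The log2 fold change was 0.18 (SE 0.19, edgeR adjusted p = 0.999), and 0.04 without male replicate 1. Awat2 stood at 12.8, 25.2, 17.3 and 20.9 CPM in males and at 16.5, 21.3, 31.5 and 17.2 CPM in females. Again male replicate 1 was lowest and female replicate 3 highest. Its log2 fold change was 0.19 (SE 0.26, edgeR adjusted p = 0.999), -0.05 without female replicate 3 and 0.34 without male replicate 2.

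Dgat2l6 had the widest spread of the 9 members tested. It stood at 9.25, 17.9, 13.8 and 19.2 CPM in males and at 14.5, 17.8, 27.8 and 9.87 CPM in females, a 3-fold span over the libraries. The extremes were the same libraries as for Awat1 and Awat2. The log2 fold change was 0.22 (SE 0.34, edgeR adjusted p = 0.999), -0.10 without female replicate 3 and 0.41 without female replicate 4. The library in which Awat1, Awat2, Dgat2l6 and Mogat1 were highest, female replicate 3, also held the highest hair follicle sum (1361 CPM) and the least muscle transcript. Male replicate 2, with the lowest hair follicle sum (178 CPM), had the second highest value of Awat2. With the hair follicle genes as a covariate the log2 fold change of Dgat2l6 was 0.05 (SE 0.37) and that of Awat2 0.13 (SE 0.31). With the muscle genes they were 0.0009 (SE 0.30) and 0.03 (SE 0.25). For Awat1 the values with these covariates were 0.13 (SE 0.21) and 0.12 (SE 0.19). The part of hair follicle or muscle content in these values was not tested.

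The neighbours of the X-linked trio were read in the same libraries. Igbp1, which encodes a protein that binds phosphatase subunits, stood at 103 ± 7.05 CPM in females against 102 ± 7.18 CPM in males (SD, n = 4 each). Otud6a had 0 counts in all 8 libraries. P2ry4, a nucleotide receptor gene on the far side of Awat1, stood at 11.8 ± 4.45 and 16.7 ± 0.769 CPM. Eda, the ectodysplasin gene on the far side of Awat2, stood at 6.84 ± 2.34 and 6.49 ± 1.07 CPM.

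Soat1, which makes cholesterol esters in many cell types, stood at 49.4, 66.5, 61.3 and 64.2 CPM in males and at 58.5, 40, 60.7 and 53.4 CPM in females. Female replicate 2 was lowest. Its log2 fold change was -0.18 (SE 0.15, edgeR adjusted p = 0.946), and -0.07 without that library. Macrophages express Soat1 too, and the 7 macrophage genes found summed to 738 CPM in female replicate 2, 694 CPM in female replicate 3 and 1201 to 2296 CPM in the other libraries. The part of macrophage content was not tested.

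Mogat1 was close to absent, with 3, 2, 9 and 2 counts in male replicates 1 to 4 and 6, 7, 17 and 5 counts in female replicates 1 to 4. It did not pass the filter and was not tested. Its relative Mogat2 was lower still, at 0.0378 ± 0.0457 CPM in females against 0.0397 ± 0.0518 CPM in males. The diacylglycerol acyltransferase genes Dgat2 (390 ± 80.5 and 418 ± 20.8 CPM) and Dgat1 (44.1 ± 3.35 and 46.8 ± 5.69 CPM) were far higher in count.

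Mc5r was the lowest member that could be tested, with 90 to 155 counts in males and 94 to 132 in females. It stood at 4.48, 8.28, 6.6 and 5.53 CPM in males and at 5.53, 4.71, 5.82 and 4.36 CPM in females, and male replicate 2 was highest. The log2 fold change was -0.29 (SE 0.21, edgeR adjusted p = 0.922), and -0.13 without that library. Mrap, which encodes an accessory protein of melanocortin receptors, was the 1 gene tested of the 7 on the melanocortin list (-0.58, SE 0.45, edgeR adjusted p = 0.942). Other melanocortin receptor genes were lower: Mc1r stood at 0.121 ± 0.058 CPM in females against 0.163 ± 0.126 CPM in males, and Mc3r had 0 CPM in all libraries. Pomc, which encodes the precursor of the melanocortin peptides, stood at 0.199 ± 0.0662 and 0.231 ± 0.159 CPM. Transcripts of the receptor were thus found with almost no transcript of the peptide precursor in the paw.

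**Figure D3:**
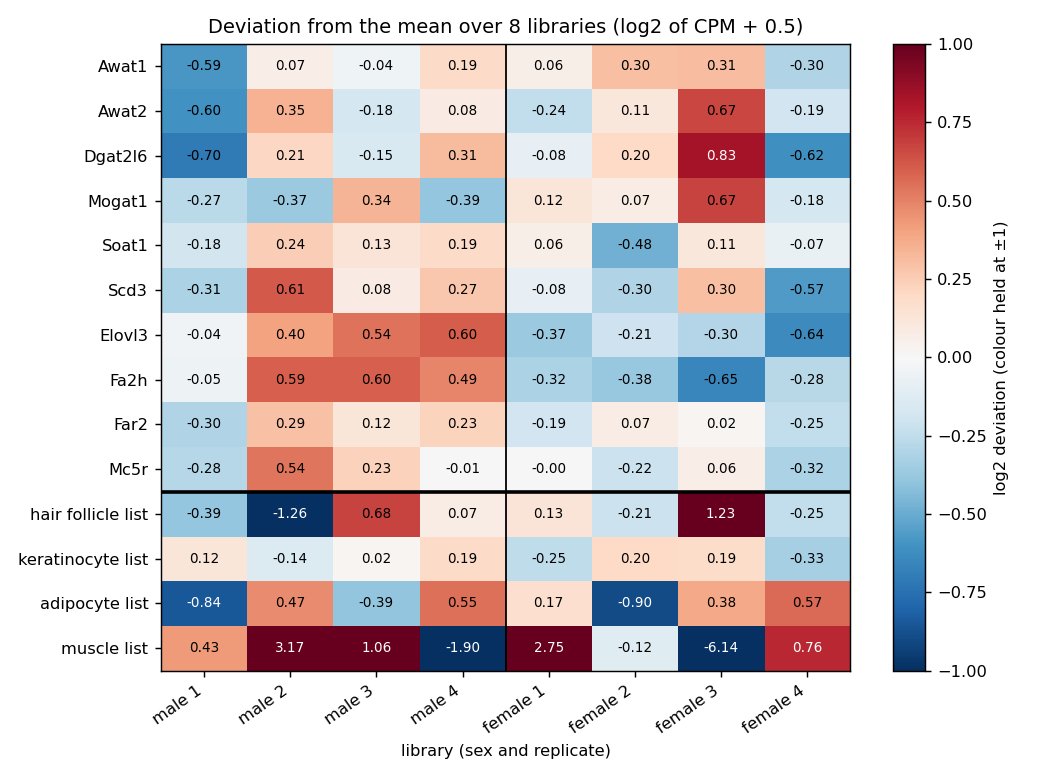
Deviation of each library from the mean over the 8 libraries, as log2 of CPM + 0.5, for the 10 genes (above the line) and for the mean of 4 cell type lists (below it). Fa2h and Elovl3 are below 0 in all 4 females, male replicate 1 is below 0 for all 10 genes, and Awat2 (0.67) and Dgat2l6 (0.83) peak in female replicate 3.

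Male replicate 1 was below the mean of the 8 libraries for 10 of 10 members, and female replicate 4 was too. Their hair follicle deviations were -0.39 and -0.25, and their keratinocyte deviations 0.12 and -0.33. In male replicate 2, with the lowest hair follicle deviation (-1.26), every member but Mogat1 (-0.37) lay above its mean. The part of gland content in these values was not tested.

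Ratios of the counts of 2 members within a library were also read. They need no scaling between libraries, and the pairs described were chosen after the values were seen. Of the 36 pairs of tested members 10 had no overlap between the sexes and 26 overlapped. These pairs reuse the same members, and the share among pairs of all genes was not measured, so the count is a description. Fa2h or Elovl3 with any of the remaining members gave 8 of the 10, out of 14 such pairs. The ratio of Fa2h overlapped with Dgat2l6, Scd3 and Mc5r as the denominator, and that of Elovl3 with Soat1, Scd3 and Mc5r. For 1 Awat1 read there were 1.55, 1.33, 1.58 and 1.41 Elovl3 reads in males and 0.782, 0.74, 0.689 and 0.833 in females. The means were 1.47 ± 0.119 in males and 0.761 ± 0.0609 in females (SD, n = 4 each), and all females lay below all males. The ratio of Fa2h to Awat1 was 2.93 to 3.7 in males and 1.22 to 2.41 in females. Against Awat1, 3 of the 8 other tested members (Fa2h, Elovl3 and Scd3) had no overlap between the sexes, as did 1.61% of all tested genes. With Far2 as the denominator the ratio of Elovl3 was 0.501 to 0.625 in males and 0.354 to 0.41 in females, and that of Fa2h was 1.25 to 1.46 and 0.657 to 1.02. There 2 of 8 members had no overlap, against 2.27% of all tested genes. Fa2h and Elovl3 already had no overlap in CPM, so neither of these counts is separate from that result. The ratio of Fa2h to Elovl3 overlapped between the sexes, with 2.08 to 2.58 Fa2h reads for 1 Elovl3 read in males and 1.76 to 2.89 in females. The ratio of Awat2 to Awat1 overlapped likewise, at 0.25 to 0.337 and 0.223 to 0.356.

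**Figure D4:**
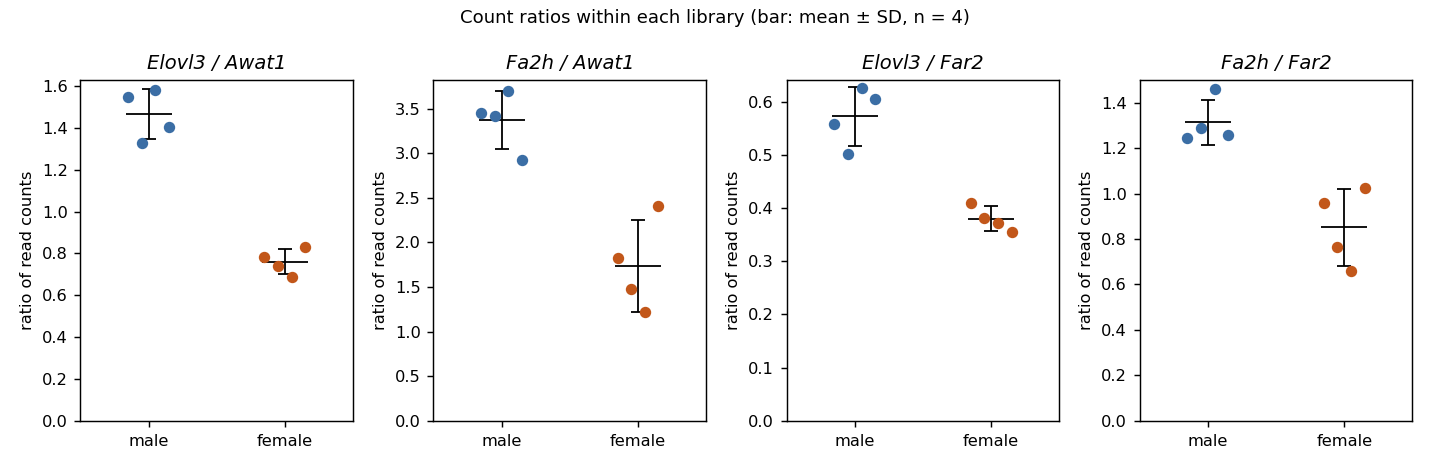
Ratio of read counts within each library for 4 of the pairs of members without overlap, chosen after their values were seen, with the mean ± SD of each sex (n = 4) and axes from 0. All 4 females lie below all 4 males in each panel, and for Elovl3 to Awat1 the highest female is at 0.833 and the lowest male at 1.33. Of all 36 pairs 26 overlapped.

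Likeness between genes was measured as the root mean square difference of their log2 deviations over the 8 libraries, so that 0 means the same pattern. It is a description, since all genes share libraries and scaling, and genes that vary little lie close to many others. Among the members the closest pairs were Scd3 with Mc5r (0.17), Far2 with Mc5r (0.18), Soat1 with Mc5r (0.19), Awat2 with Dgat2l6 (0.20) and Fa2h with Elovl3 (0.20). The farthest were Dgat2l6 and Fa2h (0.70). Far2 lay nearer to Awat1 (0.21) than to Elovl3 (0.31) or Fa2h (0.37).

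Over 14100 other genes with a mean of at least 1 CPM, Awat1 lay closest to Pnpla5, a lipase gene of the patatin-like family (0.05), then to Gm13177 (0.10) and Trfr2 (0.11), while the median distance was 0.34. The genes nearest to Awat2 were Elovl6, an elongase (0.16), 1810021B22Rik (0.16) and Nudt17 (0.17). Those nearest to Dgat2l6 were Gm13177 (0.18), Awat2 (0.20) and Wdr65 (0.21). Elovl3 lay closest to Abcg4, an ABC transporter gene (0.12), Cyp1a1, a cytochrome P450 gene of the aryl hydrocarbon response (0.12), and Pdss1 (0.14). Fa2h lay closest to the acyl-CoA thioesterase gene Acot5 (0.19), Lhpp (0.20) and Hacl1, a peroxisomal lyase of hydroxylated acyl chains (0.20), at a median distance of 0.51. For Far2 the closest were Dgat1 (0.08), the monoglyceride lipase gene Mgll (0.09) and Pcdhb18 (0.09). For Scd3 they were Mc5r (0.17), Tmem229a (0.18) and Zfp612 (0.18), for Mc5r Atp5g1 (0.10), Immp2l (0.11) and Cisd1 (0.11), and for Soat1 Rab4a (0.10), Lin7a (0.10) and Mcf2l (0.10).

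The wider pathway was read from 5 lists with 45 genes in the files, of which 37 were tested. Of these 17 lay above 0 and 20 below, with a median log2 fold change of -0.04, and edgeR and DESeq2 both called 0. In edgeR 0 of the 37 reached an unadjusted p under 0.05. Of the 18 genes of fatty acid synthesis, desaturation and elongation, 12 lay above 0 (median 0.12). Those of smallest p were Acsbg1, an acyl-CoA synthetase gene (0.33, SE 0.16), Elovl5, an elongase of polyunsaturated chains (0.14, SE 0.07), Scd1 and Hsd17b12, a reductase of the elongation cycle (-0.22, SE 0.12). Their edgeR adjusted p were 0.790, 0.790, 0.816 and 0.827. Libraries of 2 of the 37, Elovl5 and Scd1, did not overlap, with females higher, as in 2.93% of all tested genes.

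Log2 fold changes of the other elongase genes were smaller than that of Elovl3. Elovl4, which makes the ultra-long chains of barrier ceramides, was at -0.24 (SE 0.16, edgeR adjusted p = 0.899), Elovl1 -0.05 (SE 0.14), Elovl6 0.10 (SE 0.19) and Elovl7 -0.04 (SE 0.19). The desaturase genes Scd2 (0.10, SE 0.14) and Scd4 (0.12, SE 0.32) lay near 0. Whether the change of Elovl3 differed from those of the other elongase genes was not tested.

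The 5 tested genes of neutral lipid synthesis all lay below 0 (median -0.10). Those of smallest p were Agpat2 (-0.25, SE 0.14, edgeR adjusted p = 0.8292), Lpin1 (-0.66, SE 0.68), Dgat1 (-0.09, SE 0.10) and Dgat2 (-0.10, SE 0.15). Lpin1 was highest in male replicate 2 (103 CPM) and female replicate 1 (55.6 CPM), the libraries with most muscle transcript. It was lowest in female replicate 3 (12.3 CPM), with the least, and the part of muscle content was not tested. Soat2, at 0.631 ± 0.413 CPM in females against 0.469 ± 0.146 in males, was not tested. Of the sebocyte differentiation genes 4 of 10 lay above 0 (median -0.03). Mgst1 (0.16, SE 0.09), Myc (0.13, SE 0.11) and Pparg (-0.21, SE 0.17) had edgeR adjusted p of 0.843, 0.946 and 0.952. Among the 3 genes of fatty alcohol and ether lipids, Agps (0.06, SE 0.08) lay above 0 and Gnpat (-0.08, SE 0.17) and Far1 below.

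**Figure D5:**
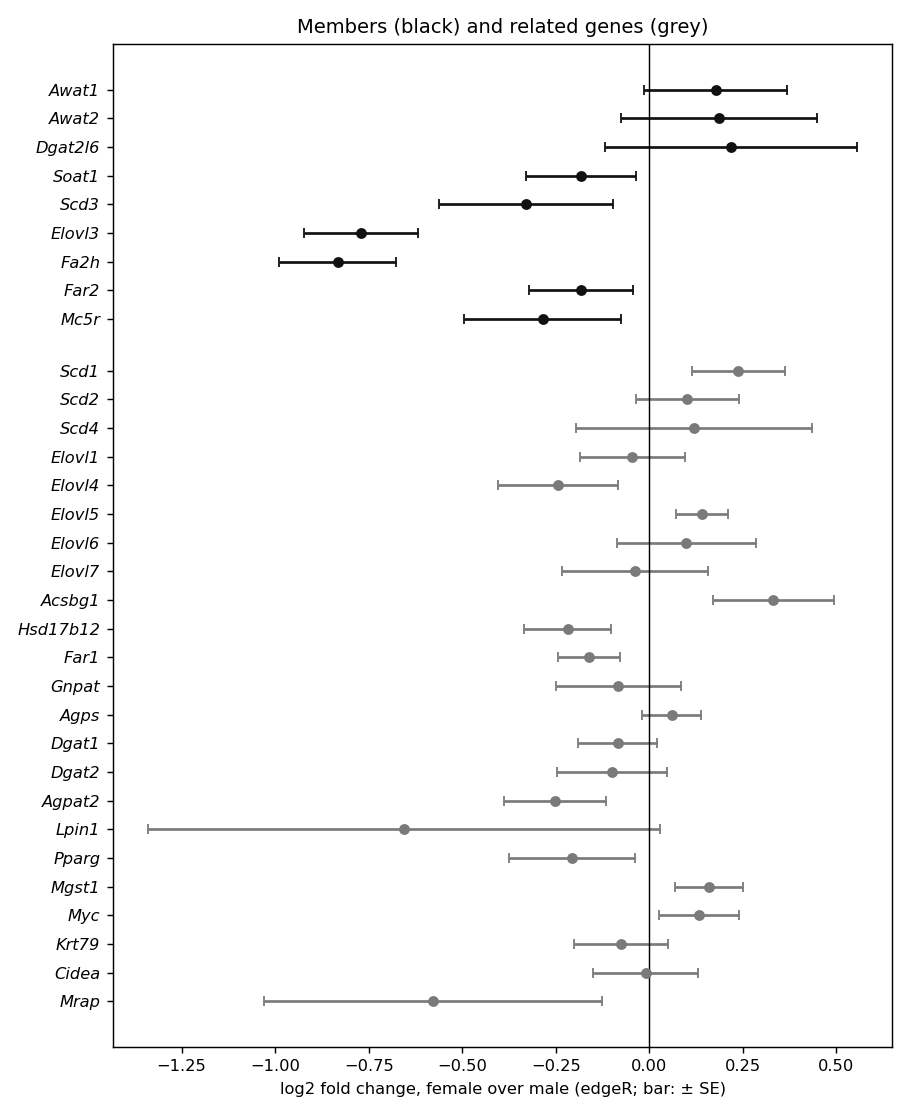
Log2 fold change, female over male, with its SE from edgeR, for the 9 tested members (black) and 23 pathway genes named in the text (grey). Fa2h (-0.83) and Elovl3 (-0.77) lie lowest, Lpin1 (-0.66) and Mrap (-0.58) follow with wider errors, and the other genes range from -0.33 for Scd3 to 0.33 for Acsbg1.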

How the data were processed

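The authors deposited 1 table of raw read counts per library, with no normalization. Per the labels' protocols, a stranded poly(A)-selecting kit and single-end 50 bp reads were used. The submitters' processing notes name bcl2fastq, TopHat2 and HTSeq with build mm9. The sources used here give no versions, annotation or strand setting. Summary lines that name no gene were left out. Of the uniquely placed reads, 18 to 21.1% fell in no gene.

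Female was compared with male in edgeR 4.0.16 (R 4.3.3) over all 14790 of 22609 genes kept by filterByExpr, with TMM scaling, the robust quasi-likelihood test and Benjamini-Hochberg adjustment at 0.05. The SE was the log2 fold change over the root of its F statistic. DESeq2 1.42.0 and limma-voom (limma 3.58.1) were alternatives, with other scalings, filters, covariates, a replicate block and each library left out. The fit was tested on simulated data. Replicate libraries differed by more than sampling noise, with a chi-square per degree of freedom of 13.2 or more. Transcript lengths came from GENCODE M21 (GRCm38) and promoters from RefSeq, and no coordinates of the counts were used.

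The members and lists were chosen with earlier results of these data known. Named were all members, their paralogs, the called genes or up to 4 genes of smallest p in each pathway list, the 3 genes closest in pattern to each member, and RefSeq neighbours. Marker lists were named by their 2 genes of highest mean CPM. The other keratinocyte genes were chosen after their values were seen. Elovl1, Elovl4, Elovl7, Cidea, Krt79 and the melanocortin genes were also so chosen. A gene of a pathway list that this rule would name is not reported here.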

Additional observations from a re-analysis of the deposited data

Results flagged for a closer look

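Members, list means and count ratios were searched for a library far from the others of its sex, by Dixon's test of 4 values. Of 70 such sets 6 held one, and chance alone flags about 1 in 20. Fa2h in male replicate 1 stood at 7.36 on the log2 scale of CPM + 0.5, against 7.90 to 8.004 in the other males. Mogat1 in male replicate 3 stood at -0.0136 on that scale, against -0.74 to -0.62, which rests on 9 counts. The log2 ratio of Awat2 to Dgat2l6 counts in female replicate 4 was 0.80, with the other females at 0.18 to 0.26. The mean log2 level of the neutral lipid synthesis genes in female replicate 1 was 6.07, with the other females at 5.67 to 5.71. The mean of the fatty alcohol and ether lipid genes was 6.15 in male replicate 2 and 5.96 to 5.98 in the other males. Mrap, the 1 tested gene of the melanocortin list, reached 1.03 in female replicate 4, with the other females at 0.04 to 0.20.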

How the results depend on the processing

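Each of the 9 tested members was refitted under 21 alternatives, of which leaving out female replicate 3 and male replicate 2 together was chosen after seeing the data. Fa2h, Elovl3, Scd3, Far2, Soat1, Mc5r and Awat1 kept their direction in all 21. Fa2h ranged from -0.96 to -0.72 and Elovl3 from -0.89 to -0.68. Awat2 ranged from -0.0518 to 0.34 and Dgat2l6 from -0.10 to 0.41 when 1 library was left out, both below 0 only without female replicate 3. Dgat2l6 stood at -0.0230 without that library and male replicate 2. The members called numbered 2 in DESeq2, 0 to 1 when 1 library was left out, and 0 in the other alternatives. Over all genes DESeq2 called 112, the fit without both libraries 9, and the fits without 1 library 8 (male replicate 3 or 4) to 16, against 14. With the replicate block 7 genes and no member were called, and Fa2h stood at -0.82 (edgeR adjusted p = 0.999). Same-numbered libraries deviated against each other (correlation -0.36 to -0.09). Male replicate 2 and female replicate 1, the libraries with most muscle transcript, reached 0.81. The part of muscle content in these correlations was not tested. Whether the numbers stand for anything shared was not tested. At 2 to 17 counts per library, Mogat1 was too shallow for a comparison.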
